A study of Sus scrofa with 8 samples.

Results

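A set of 40 genes that modify, fold, export, process and crosslink collagen was described in RNA-seq libraries of pig condylar cartilage cells. The set was chosen by gene symbol from the textbook steps of collagen production: prolyl and lysyl hydroxylases, chaperones of the endoplasmic reticulum (ER), glycosyltransferases, export factors, propeptide-processing proteins, lysyl oxidases and the matricellular protein SPARCL1. Of the 40 listed genes, 38 were found by symbol among the 18898 genes of the deposited table. All 38 passed the filter on low counts. The rows of the other two, MIA2 and PCOLCE2, carry no symbol or another symbol. They were found by identifier and are described apart from the 38.

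The libraries came from the condyle of the temporomandibular joint (TMJ), the jaw joint, in pigs labelled wild type. A total of 4 libraries are labelled osteoarthritis and 4 control. The model was a surgical hole of 5.0 mm made with a biopsy punch in the back and outer part of the joint disc, with the disc left attached. The labels print the same surgical text for all samples and do not say whether controls had a sham operation. The sources used here give no age, strain or time after surgery. The labels call the samples biological replicates without naming animals, and the p-values therefore reflect variation among these samples, which may be in part technical.

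Collagen chains are hydroxylated on proline and lysine in the ER, and part of the hydroxylysines receive sugars. Chaperones hold the chains until the triple helix has formed, and the long procollagen molecules leave the ER in enlarged transport carriers. Outside the cell, proteinases remove the propeptides, and lysyl oxidases convert lysine and hydroxylysine side chains into the aldehydes from which crosslinks form. In cartilage the main fibrils contain type II collagen with types IX and XI. Mutations in many of these genes cause brittle bone, joint laxity or short stature in people.

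Each library held between 11354200 and 25412939 estimated counts. Levels below are CPM, the share of a gene in its library after scaling by the trimmed mean of M-values (TMM), and serve to compare 1 gene between libraries. Levels between genes are compared only as TPM, which divide by gene length, within a library. Differences were tested with edgeR's quasi-likelihood test over 16020 genes. A gene was called changed at a Benjamini-Hochberg adjusted p under 0.05. In bulk samples, fewer cells of a type and less RNA per cell cannot be told apart.

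Chondrocyte markers were present in every library, with 9 of 9 detected. Their summed level was 18293 to 130332 CPM in osteoarthritis libraries and 6817 to 15618 CPM in control libraries, and none of the 9 was called changed. Markers of basal epithelium summed to 1.1 to 2.21 CPM in osteoarthritis libraries and 91.6 to 377 CPM in control libraries, with 5 of 5 called lower. Osteoclast markers summed to 1323, 738, 1299 and 510 CPM in osteoarthritis replicates 1 to 4, against 8.25, 875, 12.8 and 924 CPM in control replicates 1 to 4. The controls thus fell into pairs. Controls 1 and 3 were the most alike of all libraries, with a Pearson correlation of log2 CPM of 0.989, yet their counts differed by more than sampling noise and they were counted as separate samples.

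None of the 38 genes was called changed in osteoarthritis by edgeR, where the test called 0.618% of all genes (0.225% higher and 0.393% lower). Before adjustment, 7 members were higher at a p under 0.05, PLOD2, FKBP14, COLGALT2, KDELR3, CREB3L2, ADAMTS3 and LOXL4, and 1 was lower, LOXL1. That is 8 of 38, and 15.2% of all genes met the same threshold, 7.52% higher and 7.65% lower. DESeq2 called 3 of the 38 (ADAMTS3, COLGALT2 and LOXL1), where it called 4.75% of all genes. limma-voom called 0 members and 0.743% of all genes. Its version with sample weights called 6 members and 20.8% of all genes. edgeR with library size in place of TMM called 2 members, ADAMTS3 and COLGALT2, and 1.34% of all genes.

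The fold changes of the 38 genes were more often above 0 than below, a count without a test of its own. A log2 fold change above 0 was fitted for 27 members and below 0 for 11, while 50.4% of all genes were above 0. The median over members was 0.31 and that over all genes was 0.0049. With sample weights limma-voom gave a members' median of 0.030, with 22 above 0 and 16 below, and the members' median minus that of all genes was -0.0042. Members ranged from -1.02 for LOXL1 to 2.68 for COLGALT2. In 5 members every osteoarthritis library lay above every control library: FKBP14, COLGALT2, KDELR3, ADAMTS3 and LOXL4. This order held in 5.69% of all genes. No member lay below every control library, against 5.52% of all genes. By role, the median log2 fold change was 0.24 for 9 hydroxylases, 0.31 for 8 chaperones, 0.31 for 3 glycosylation and ER calcium genes, 0.50 for 7 export genes, 0.38 for 5 processing genes and 0.18 for 5 crosslinking genes.

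**Figure D1:**
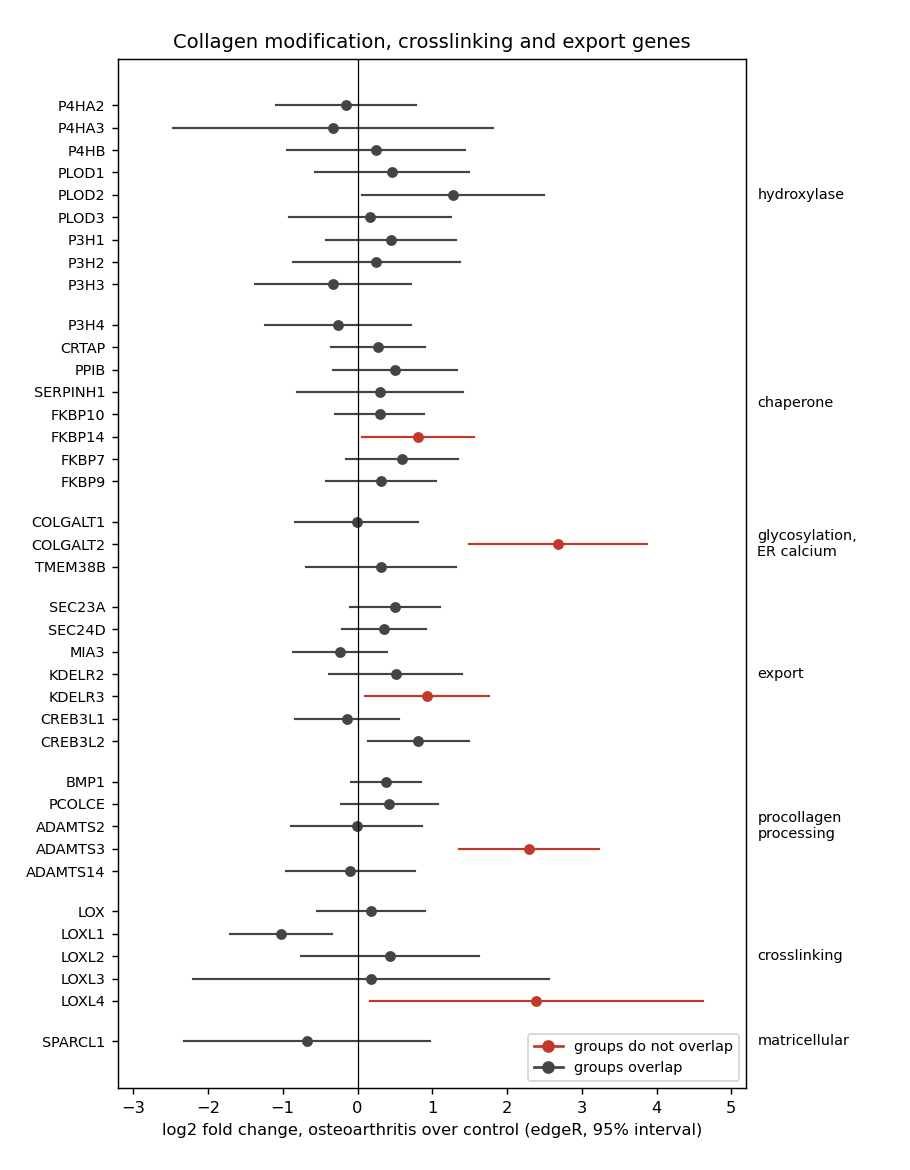
Log2 fold change of each of the 38 genes, osteoarthritis over control, by role. Points are edgeR estimates and lines their 95% intervals; red marks the 5 genes whose osteoarthritis libraries all lay above the control libraries, among them COLGALT2 at 2.68 and ADAMTS3 at 2.30.

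The sign of the median depended on which controls were used. Both of controls 1 and 3 lay above controls 2 and 4 in 32 of the 38 members, against 30.6% of all genes. The reverse order held in 5 members, CREB3L1, BMP1, PCOLCE, ADAMTS14 and LOXL4, against 33.5% of all genes. With controls 2 and 4 as the only controls, a fit added after seeing the data, 35 members were above 0 with a median log2 fold change of 1.04. With controls 1 and 3 as the only controls, 16 members were above 0 and 22 below, with a median of -0.13. Against controls 2 and 4, edgeR called 2 members higher, PLOD2 and KDELR3, and 0.429% of all genes. Against controls 1 and 3 it called ADAMTS3 and LOXL4 higher and LOXL1 lower, and 7.35% of all genes. The pairs were defined from these same data, and controls 1 and 3 were the most alike of all libraries. Calls and p-values from fits on either pair, here and below, are therefore descriptions and no separate evidence.

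The osteoarthritis libraries also differed among themselves. Replicate 3 was the lowest of its group in 27 members, against 33.6% of all genes, and the highest in ADAMTS14 and LOX. The median ratio of the highest to the lowest library was 1.98 in osteoarthritis and 2.71 in controls, and the ratio was wider in controls for 25 members. All osteoarthritis libraries lay above controls 2 and 4 in 26 members. They lay above controls 1 and 3 in 9 and below controls 1 and 3 in another 9. The ratios and these counts against the pairs were not taken over all genes. They describe the members and do not set them apart from other genes.

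**Figure D2:**
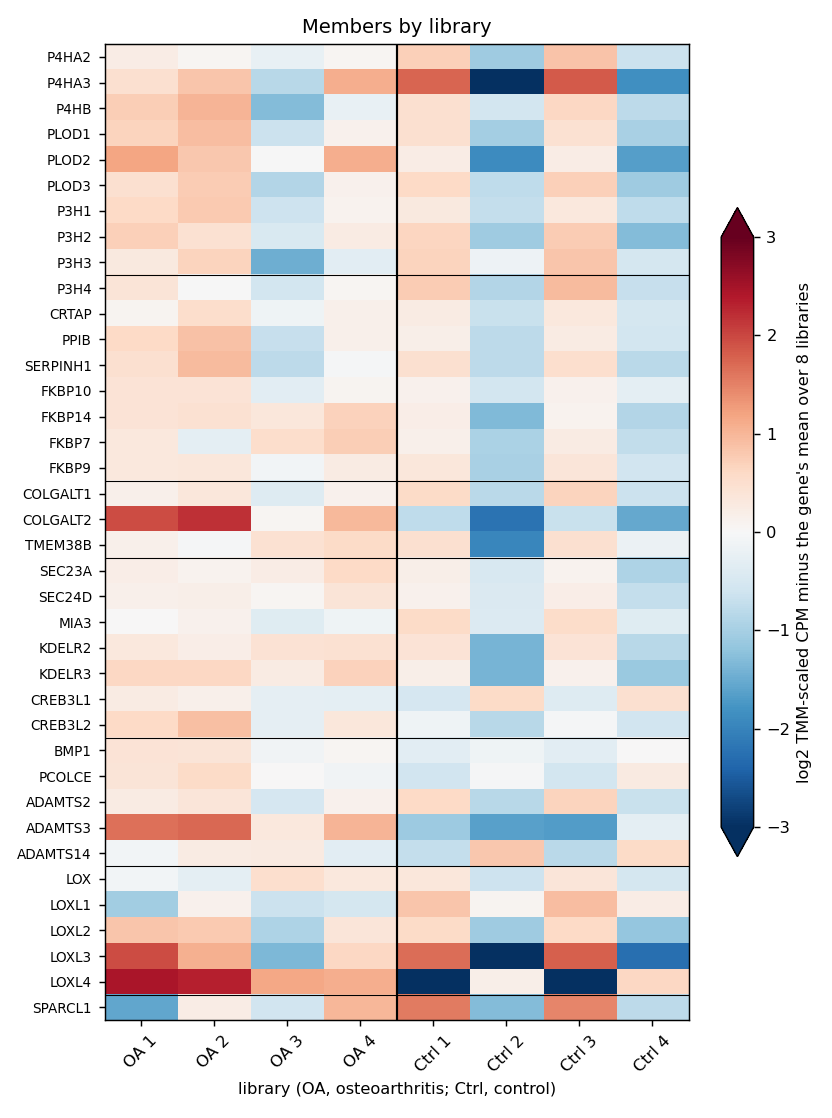
Log2 CPM of the 38 genes in each library, minus the gene's mean over the 8 libraries, with osteoarthritis (OA) left of control (Ctrl) and roles separated by lines. In 32 members Ctrl 1 and Ctrl 3 are both above Ctrl 2 and Ctrl 4, and OA 3 is the lowest osteoarthritis library in 27.

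Among the hydroxylases, PLOD2 had the smallest p. It encodes the lysyl hydroxylase that acts on the telopeptides, the short chain ends where stable crosslinks start. PLOD2 (ENSSSCG00000011689, chromosome 13, 86402673 to 86513167, Sscrofa11.1) had 605, 467, 267 and 571 CPM in osteoarthritis libraries, against 315, 72.8, 312 and 85.1 CPM in control libraries. Only osteoarthritis replicate 3 overlapped the controls, lying below controls 1 and 3. The log2 fold change was 1.28 ± 0.54 (SE), with an edgeR adjusted p of 0.307. Against controls 2 and 4 alone it was 2.63 (edgeR adjusted p = 0.0495), and against controls 1 and 3 alone 0.58 (edgeR adjusted p = 0.366).

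P3H1, a prolyl 3-hydroxylase that works in a complex with CRTAP and PPIB, had 359, 411, 154 and 257 CPM in osteoarthritis libraries, against 290, 143, 293 and 140 CPM in control libraries. The groups overlapped (0.45 ± 0.39 on the log2 scale, edgeR adjusted p = 0.626). P4HB, the protein disulfide isomerase that is also a subunit of prolyl 4-hydroxylase, had 599, 723, 145 and 308 CPM in osteoarthritis libraries, against 498, 245, 549 and 208 CPM in control libraries. Its lowest library of all was osteoarthritis replicate 3 (0.24 ± 0.53 on the log2 scale, edgeR adjusted p = 0.868).

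P4HA3, a catalytic subunit of prolyl 4-hydroxylase, is given here after its values were seen. It had 30.7, 38.8, 12.4 and 46.7 CPM in osteoarthritis libraries, against 73.8, 2.20, 78.9 and 6.08 CPM in control libraries. All osteoarthritis libraries lay between the pairs of controls, and the log2 fold change was -0.33 ± 0.94 (edgeR adjusted p = 0.906). It was 2.91 against controls 2 and 4 alone and -1.28 against controls 1 and 3 alone.

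Among the chaperones, SERPINH1 stood at the highest level. It encodes HSP47, the collagen-specific chaperone that binds the folded triple helix. SERPINH1 had 1854, 2570, 775 and 1301 CPM in osteoarthritis libraries, against 1845, 778, 1899 and 755 CPM in control libraries. Osteoarthritis replicate 3 lay with controls 2 and 4, and the groups overlapped (0.30 ± 0.49 on the log2 scale, edgeR adjusted p = 0.813).

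FKBP14, an ER peptidyl-prolyl isomerase whose loss causes a kyphoscoliotic Ehlers-Danlos syndrome in people, had 28.2, 29.1, 27.2 and 34.3 CPM in osteoarthritis libraries, against 24.5, 8.50, 23.1 and 11.6 CPM in control libraries. The osteoarthritis libraries were close together and all above the controls, by a narrow margin over controls 1 and 3. Its log2 fold change was 0.81 ± 0.33, with an unadjusted p of 0.0367 and an adjusted p of 0.295 by edgeR. FKBP7, another isomerase of the ER, had 16.2, 10.7, 18.9 and 21.8 CPM in osteoarthritis libraries, against 14.6, 6.77, 15.5 and 7.84 CPM in control libraries, and the groups overlapped (edgeR adjusted p = 0.434).

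COLGALT2 had the largest fold change of the 38 genes. COLGALT1 and COLGALT2 encode the galactosyltransferases that place galactose on hydroxylysine. COLGALT2 (ENSSSCG00000030217, chromosome 9, 125149806 to 125291092) had 157, 185, 41.7 and 79.0 CPM in osteoarthritis libraries, against 23.8, 8.66, 25.3 and 13.9 CPM in control libraries. Every osteoarthritis library lay above every control, with replicate 3 nearest to them. The log2 fold change was 2.68 ± 0.53, with an edgeR adjusted p of 0.0659, so it missed the threshold. It was 3.37 against controls 2 and 4 alone and 2.20 against controls 1 and 3 alone, above 0 with either pair. Without osteoarthritis replicate 3 the edgeR adjusted p was 0.0419.

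COLGALT1 had 75.1, 85, 51.2 and 73.1 CPM in osteoarthritis libraries, against 99.3, 38.1, 106 and 42.9 CPM in control libraries. All osteoarthritis libraries lay between the pairs of controls, and the log2 fold change was -0.01 ± 0.36 (95% interval -0.83 to 0.80). TMEM38B, an ER potassium channel that supports calcium release, had 2.03, 1.78, 2.51 and 2.7 CPM in osteoarthritis libraries, against 2.52, 0.472, 2.55 and 1.62 CPM in control libraries. Its estimated counts were 21 to 101 in osteoarthritis libraries and 3 to 33 in control libraries, the thinnest of the set, and the groups overlapped (edgeR adjusted p = 0.783).

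Among the export genes, KDELR3 and CREB3L2 had the smallest p. KDELR3 encodes a receptor that returns chaperones from the Golgi to the ER. It had 129.5, 130.1, 99.2 and 136 CPM in osteoarthritis libraries, against 95.7, 32.3, 92.5 and 39.0 CPM in control libraries. The groups did not overlap, with osteoarthritis replicate 3 just above control 1. On the log2 scale the difference was 0.93 ± 0.37 (edgeR adjusted p = 0.280). Against controls 2 and 4 alone it was 1.83 (edgeR adjusted p = 0.0354), and against controls 1 and 3 alone 0.36 (edgeR adjusted p = 0.331).

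CREB3L2 encodes a membrane-bound transcription factor that, in mice, drives genes of the secretory pathway in chondrocytes. It had 225, 278, 122 and 186 CPM in osteoarthritis libraries, against 134, 82.5, 145 and 99.0 CPM in control libraries. Only osteoarthritis replicate 3 overlapped the controls (0.81 ± 0.30 on the log2 scale, edgeR adjusted p = 0.252). Its relative CREB3L1, which in mice acts in osteoblasts, had 267, 252, 186 and 184 CPM in osteoarthritis libraries, against 160, 337, 173 and 314 CPM in control libraries. Here controls 2 and 4 were the high ones, and the osteoarthritis libraries lay between the pairs (-0.15 ± 0.31 on the log2 scale, edgeR adjusted p = 0.864).

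MIA2, whose protein cooperates with MIA3 (TANGO1) at ER exit sites, was matched through its Entrez identifier to a row without a symbol. Like P4HA3, MIA2 is given by library after its values were seen. It had 8.61, 8.04, 8.37 and 9.38 CPM in osteoarthritis libraries, against 8.41, 3.94, 10.3 and 6.28 CPM in control libraries. The osteoarthritis libraries spanned a narrow range inside that of the controls (0.24 ± 0.28 on the log2 scale, edgeR adjusted p = 0.725).

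**Figure D3:**
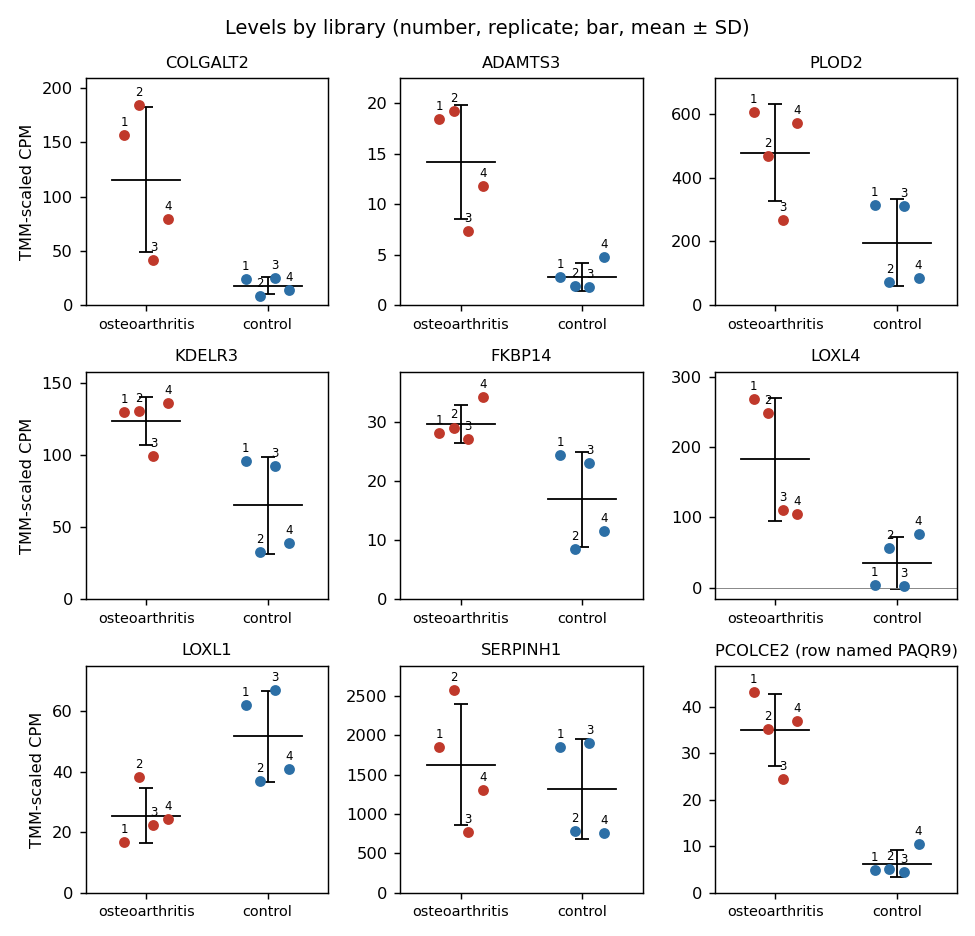
CPM by library for 9 genes, osteoarthritis left of control; numbers are replicates, black bars the mean ± SD (n = 4 per group). COLGALT2, ADAMTS3, KDELR3, FKBP14, LOXL4 and PCOLCE2 have no overlap between groups, while PLOD2, LOXL1 and SERPINH1 overlap.

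The processing genes held the smallest p of the 38. ADAMTS3 encodes a proteinase that removes the amino-terminal propeptide, with type II procollagen among its substrates. ADAMTS3 (ENSSSCG00000038180, chromosome 8, 68675067 to 68948537) had 18.4, 19.2, 7.33 and 11.8 CPM in osteoarthritis libraries, against 2.75, 1.89, 1.85 and 4.76 CPM in control libraries. It was the sole member in which the controls did not split into the pairs above, and the groups did not overlap. The log2 fold change was 2.30 ± 0.41, with an edgeR adjusted p of 0.0502, at the edge of the threshold. Of 22 alternative settings, 11 called it changed, all higher. Over all 22 the adjusted p lay between 2.2e-05 and 0.253. Some of the 11 called many genes: limma on log2 of the deposited TPM called 88.1% of all genes and limma-voom with sample weights 20.8%. The fit on controls 1 and 3 alone called 7.35% and DESeq2 4.75%. Among the 11 were also the edgeR fits without osteoarthritis replicate 3 (adjusted p = 0.0414) and without control 4 (adjusted p = 0.0352).

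BMP1, the proteinase that removes the carboxy-terminal propeptide and activates lysyl oxidase, had 252, 250, 177 and 200 CPM in osteoarthritis libraries, against 152, 175, 154 and 192 CPM in control libraries. Control 4 lay above osteoarthritis replicate 3 (0.38 ± 0.21 on the log2 scale, edgeR adjusted p = 0.422). PCOLCE, which speeds up cleavage by BMP1, had 467, 536, 361 and 332 CPM in osteoarthritis libraries, against 239.7, 347, 245 and 430.3 CPM in control libraries. The groups overlapped through controls 2 and 4 (0.43 ± 0.29 on the log2 scale, edgeR adjusted p = 0.522).

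PCOLCE2, a second enhancer of that cleavage, was called higher in osteoarthritis by edgeR, in a row that the deposited table names PAQR9. Like P4HA3, PCOLCE2 is given by library after its values were seen. The row's Ensembl identifier (ENSSSCG00000011683) and its Entrez identifier both belong to PCOLCE2 in the reference tables. In RefSeq the genes are neighbours on chromosome 13 of Sscrofa11.1, PCOLCE2 at 83507607 to 83592929 and PAQR9 at 83660387 to 83669522. The rule by symbol did not find this row, so it is not counted among the 38.

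The PCOLCE2 row had 43.2, 35.2, 24.5 and 37.0 CPM in osteoarthritis libraries, against 4.97, 5.04, 4.57 and 10.5 CPM in control libraries. All osteoarthritis libraries lay above all controls, and control 4 was the highest control. The fitted log2 fold change was 2.46 ± 0.32, with an edgeR adjusted p of 0.0180. It kept the call against controls 1 and 3 alone (2.84, edgeR adjusted p = 0.00422) and lost it against controls 2 and 4 alone (2.16, edgeR adjusted p = 0.0566). With 1 library left out, the adjusted p lay between 0.00715 and 0.0901, and the call held in 2 of 8 fits. It was lost without osteoarthritis replicate 1, 2 or 4 and without control 1, 2 or 3.

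Among the lysyl oxidases, LOXL1 and LOXL4 had the smallest p, with fold changes of opposite sign. LOXL1, which is tied to elastic fibres in mice, had 16.9, 38.4, 22.5 and 24.4 CPM in osteoarthritis libraries, against 62.1, 37.0, 66.9 and 41.0 CPM in control libraries. Only osteoarthritis replicate 2 and control 2 broke the order, by a small margin. The fitted log2 fold change was -1.02 ± 0.30 (edgeR adjusted p = 0.168). It was -0.57 against controls 2 and 4 alone and -1.37 against controls 1 and 3 alone (edgeR adjusted p = 0.0388).

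LOXL4, a copper-dependent amine oxidase of the same family, had 268, 248, 110.2 and 105 CPM in osteoarthritis libraries, against 3.97, 56.2, 2.73 and 76.3 CPM in control libraries. The groups did not overlap, and controls 1 and 3 were far below controls 2 and 4. The fitted log2 fold change was 2.39 ± 0.99 (edgeR adjusted p = 0.30). It was 5.73 against controls 1 and 3 alone (edgeR adjusted p = 0.00437) and 1.5 against controls 2 and 4 alone (edgeR adjusted p = 0.149). The osteoclast markers given above were also low in controls 1 and 3. Osteoblast and osteocyte markers summed to 3494, 2429, 2885 and 2451 CPM in osteoarthritis libraries, against 361, 2082, 388 and 2087 CPM in control libraries, with no overlap. Of these 6 markers only IBSP did not overlap by itself. It had 2816, 1706, 1441 and 1746 CPM in osteoarthritis libraries, against 14.6, 1041, 14.7 and 778 CPM in control libraries. Hypertrophic chondrocyte markers summed to 10105, 7645, 2699 and 3533 CPM in osteoarthritis libraries, against 137, 365, 148 and 2340 CPM in control libraries, also with no overlap. Macrophage markers, which overlapped, summed to 201, 168, 492 and 237 CPM in osteoarthritis libraries, against 23.2, 589, 28.3 and 608 CPM in control libraries. None of these 5 osteoclast, 6 osteoblast and osteocyte, 3 hypertrophic chondrocyte and 6 macrophage markers was called changed or was at 0 in every library, and their part in the LOXL4 values was not tested.

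LOXL2, a further crosslinking enzyme, had 427, 413, 126 and 306 CPM in osteoarthritis libraries, against 355, 114, 363 and 107 CPM in control libraries, and overlapped (0.44 ± 0.53 on the log2 scale). LOXL3, given here after its values were seen, had 88.3, 47.6, 8.90 and 34.7 CPM in osteoarthritis libraries, against 72.3, 2.05, 78.6 and 4.76 CPM in control libraries. For LOXL3 the log2 fold change was 0.18 ± 1.05, and it was 3.68 against controls 2 and 4 alone and -0.79 against controls 1 and 3 alone. SPARCL1, a relative of the collagen-binding protein SPARC, had 17.3, 60.2, 34.3 and 102 CPM in osteoarthritis libraries, against 150.3, 20.6, 140.3 and 29.9 CPM in control libraries. It split the controls in the same way (-0.68 ± 0.73 on the log2 scale, edgeR adjusted p = 0.706). Fibroblast markers summed to 218, 710, 338 and 502 CPM in osteoarthritis libraries, against 639, 128, 687 and 200 CPM in control libraries, with 0 of 5 called changed. By gene, THY1, SFRP2 and DPT had controls 1 and 3 above controls 2 and 4. PDGFRA (88.5, 57.6, 84.0 and 104 CPM in controls 1 to 4) and COL14A1 (18.6, 14.2, 20.7 and 22.7 CPM) did not, and were highest in control 4. The part of these markers in the values above was not tested.

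The other 17 members were P4HA2, PLOD1, PLOD3, P3H2, P3H3, P3H4, CRTAP, PPIB, FKBP10, FKBP9, SEC23A, SEC24D, MIA3, KDELR2, ADAMTS2, ADAMTS14 and LOX. Their log2 fold changes lay between -0.33 and 0.51, their edgeR adjusted p between 0.410 and 0.994, and their levels between 18.5 and 433 CPM. In all 17 the groups overlapped. LOX, the founding lysyl oxidase, was among them.

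Within a library, TPM give the order of the 38 genes by level. SERPINH1 held 21.7% ± 3.90 of their summed TPM in osteoarthritis libraries and 22.1% ± 4.20 in control libraries (SD, n = 4 each). PCOLCE held 11.8% ± 2.31 and 11.9% ± 6.70, and P4HB 9.92% ± 3.56 and 10.2% ± 1.68, in osteoarthritis and in control libraries in that order. SERPINH1, PCOLCE, P4HB, FKBP10 and CREB3L1 together made up 51.9% ± 5.12 of the summed TPM in osteoarthritis libraries and 55.6% ± 5.50 in control libraries. At the low end, TMEM38B held 0.0208% in osteoarthritis libraries and 0.0187% in control libraries. PLOD2 held 4.84% ± 1.2 in osteoarthritis libraries and 2.25% ± 0.977 in control libraries, COLGALT2 0.827% ± 0.276 and 0.170% ± 0.0360, and LOXL4 2.1% ± 0.625 and 0.706% ± 0.782 in the same order.

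The make-up of gene families was compared as the share of each paralog in its family's summed TPM, which does not depend on the scaling between libraries. Of 28 shares in 11 families, 13 (46.4%) did not overlap between groups, each with the smallest two-sided exact permutation p that 70 assignments can give, 0.0286. None passed after Benjamini-Hochberg adjustment over the 28 shares, where the smallest adjusted exact permutation p was 0.0615. Shares were not computed for other gene families. The 46.4% therefore describes these families and does not set them apart from others. Shares of 1 family sum to a whole and are not independent, and each comparison below has that same p, except LOXL4 (exact permutation p = 0.143).

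The largest difference was in the galactosyltransferase pair. COLGALT1 made up 42.3%, 39.3%, 65.2% and 59.8% of the pair in osteoarthritis libraries, against 87.2%, 88.4%, 86.6% and 82.4% in control libraries, with COLGALT2 as the rest. The 4 controls were close together here although they were split in pairs on the level of COLGALT1. Among lysyl hydroxylases, PLOD2 made up 67.5%, 57.1%, 68.7% and 71.9% in osteoarthritis libraries, against 50.5%, 40.8%, 50.0% and 45.1% in control libraries. PLOD1 made up 20.0% ± 4.02 in osteoarthritis libraries and 29.2% ± 2.81 in control libraries, and PLOD3 13.7% ± 2.46 and 24.2% ± 2.83 in the same order. PLOD2 thus held the larger part of the family in osteoarthritis libraries, including replicate 3, whose PLOD2 level was below controls 1 and 3.

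In the prolyl 3-hydroxylases, P3H1 made up 59.4% ± 1.77 in osteoarthritis libraries and 49.2% ± 3.42 in control libraries, and P3H3 24.7% ± 4.35 in osteoarthritis libraries and 37.4% ± 4.95 in control libraries. Among the prolyl 4-hydroxylase alpha subunits, P4HA1, which is no member, made up 44.0% ± 6.33 in osteoarthritis libraries and 32.0% ± 2.14 in control libraries. Among KDEL receptors, KDELR3 made up 42.4% ± 5.62 in osteoarthritis libraries and 28.9% ± 1.92 in control libraries. KDELR1 made up 17.6% ± 0.965 and 27.4% ± 5.12 in the same order.

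In the procollagen N-proteinases, ADAMTS3 made up 11.6%, 9.04%, 5.62% and 8.57% in osteoarthritis libraries, against 1.81%, 1.76%, 0.675% and 2.72% in control libraries. It was the smallest of the 3 paralogs in every library. In the lysyl oxidases, LOXL1 made up 2.03%, 4.97%, 4.63% and 4.01% in osteoarthritis libraries, against 10.1%, 12.5%, 10.9% and 12.8% in control libraries. The share of LOXL1 separated the groups although its level did not. LOXL4 made up 29.7%, 30.6%, 19.7% and 15.5% in osteoarthritis libraries, against 0.476%, 16.9%, 0.322% and 19.7% in control libraries, and overlapped through controls 2 and 4. FKBP14 within the FKBP isomerases was also higher in all osteoarthritis libraries (3.75% ± 0.711, against 2.43% ± 0.452 in control libraries). PCOLCE, as the part of PCOLCE and the PCOLCE2 row that it held, was 94.1% ± 1.44 in osteoarthritis libraries and 98.4% ± 0.366 in control libraries.

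**Figure D4:**
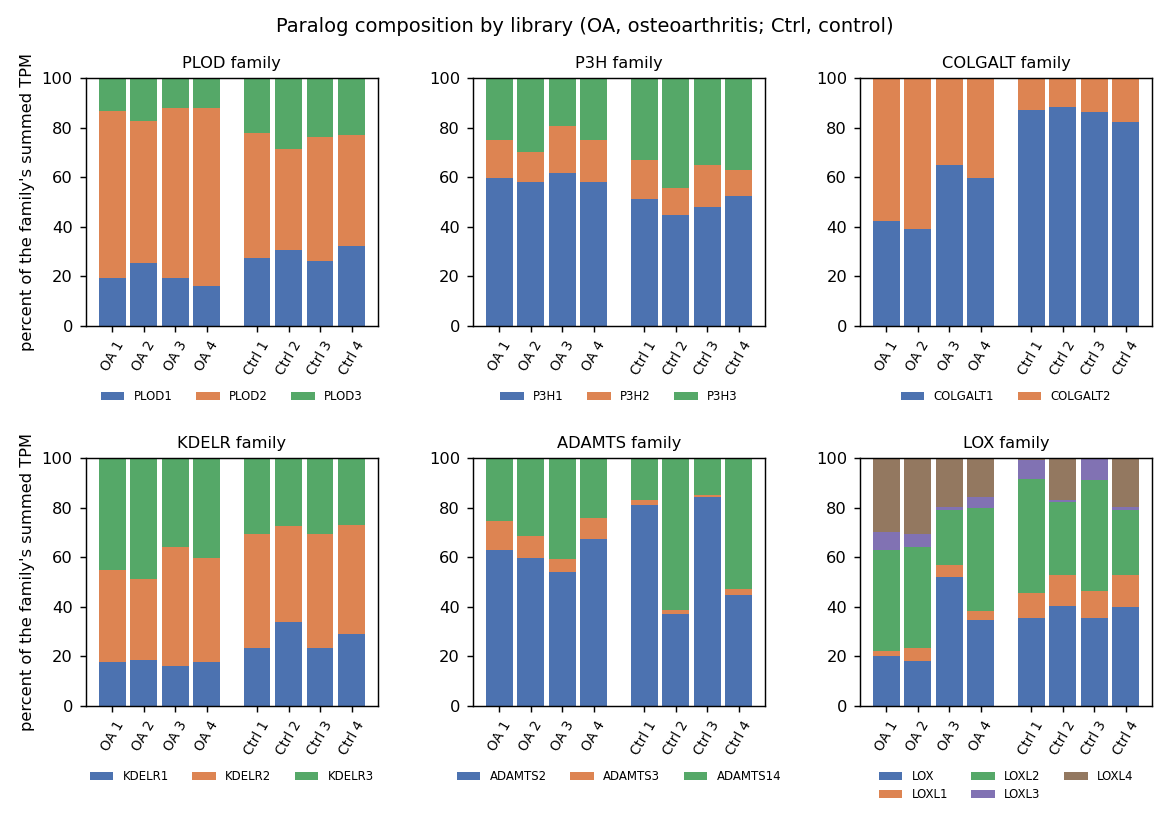
Share of each paralog in the summed TPM of its family, in percent, for 6 families, with osteoarthritis (OA) left of control (Ctrl). COLGALT1 takes 39.3% to 65.2% of its pair in OA libraries and 82.4% to 88.4% in Ctrl libraries, and PLOD2 takes 57.1% or more in each OA library and 50.5% or less in each Ctrl library.

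The substrates were looked at next. Of 14 collagen chain genes, 11 had a log2 fold change above 0 and 3 below, with a median of 1.92. None was called changed by edgeR, while 8 had an unadjusted p under 0.05, all higher, against 7.52% of all genes. In 6 chains, all higher, the groups did not overlap, against 5.69% of all genes. DESeq2 called 7 of the 14 chains and 4.75% of all genes, and limma-voom 1 chain and 0.743% of all genes. With sample weights limma-voom called 8 chains and 20.8% of all genes. COL9A1, a chain of the type IX collagen on the surface of cartilage fibrils, had 5247, 3956, 907 and 2069 CPM in osteoarthritis libraries, against 203, 170.4, 211 and 537 CPM in control libraries (3.44 ± 0.66 on the log2 scale, edgeR adjusted p = 0.0592). Without osteoarthritis replicate 3 its edgeR adjusted p was 0.0414, and without control 4 it was 0.0428. On the same scale COL9A2 was 3.02 ± 0.67 higher (edgeR adjusted p = 0.0900, and 0.0427 without osteoarthritis replicate 3), and COL11A1, of the type XI collagen inside the fibrils, 2.26 ± 0.54 (edgeR adjusted p = 0.108).

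COLGALT2, ADAMTS3, FKBP14, KDELR3 and the PCOLCE2 row shared 2 features with COL9A1, namely no overlap between groups and osteoarthritis replicate 3 as the lowest of its group. Over all genes, 33.6% had osteoarthritis replicate 3 as the lowest, and 5.69% had every osteoarthritis library above every control. The 2 features were not counted together over all genes, so they do not set these genes apart. The summed chondrocyte markers had both features too (130332, 114155, 18293 and 39763 CPM in osteoarthritis libraries, against 11103, 6817, 11597 and 15618 CPM in control libraries). That sum is no separate comparison, because the collagen chains COL9A1, COL2A1 and COL11A2 are among the markers. COL2A1 by itself had 102379, 86608, 12816 and 26998 CPM in osteoarthritis libraries. By gene, 5 of the 9 markers did not overlap between groups. Of the 9 chondrocyte markers, 8 had an unadjusted p under 0.05, all higher, against 7.52% of all genes, and none was called by edgeR. Their part in the values of the collagen genes was not tested.

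Relative to the collagen chains, most of the machinery did not separate the groups. The mix of chains in this sum differed between libraries, so the ratio does not refer to 1 common substrate. COL1A1 had 44748 of 115344 TPM of the chains in osteoarthritis replicate 1 and 57446 of 96192.5 in replicate 3. In controls 1 and 2 it had 15525 of 24344 and 6448 of 7626 TPM. All 38 genes together had 5.05 to 6.92 TPM per 100 TPM of the 14 chains in osteoarthritis libraries and 3.49 to 8.26 in control libraries. The hydroxylases had 0.892 to 1.68 in osteoarthritis libraries and 0.586 to 2.22 in control libraries, and the chaperones 1.62 to 2.33 and 1.09 to 3.20 in the same order. Crosslinking genes had 0.446 to 0.599 in osteoarthritis libraries and 0.265 to 0.723 in control libraries. For these sums the osteoarthritis libraries lay inside the range of the controls, with controls 1 and 3 above them and controls 2 and 4 below them.

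By gene, the ratio was computed only for the members found by symbol and given by library. COLGALT2, ADAMTS3, LOXL4 and LOXL1 separated the groups on it. COLGALT2 had 0.0265 to 0.0611 TPM per 100 TPM of chains in osteoarthritis libraries and 0.00504 to 0.0161 in control libraries. ADAMTS3 had 0.00607 to 0.0109 in osteoarthritis libraries and 0.00107 to 0.00294 in control libraries, and LOXL4 0.0929 to 0.140 in osteoarthritis libraries and 0.00233 to 0.0545 in control libraries. LOXL1 lay the other way, with 0.00957 to 0.0240 in osteoarthritis libraries and 0.0340 to 0.0788 in control libraries. The other members with this ratio overlapped, among them KDELR3 (0.158 to 0.238 in osteoarthritis and 0.0558 to 0.182 in control libraries). COLGALT2, ADAMTS3 and LOXL4 were already separated on CPM, and the ratio was not taken over all genes. These ratios are descriptions without a test.

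**Figure D5:**
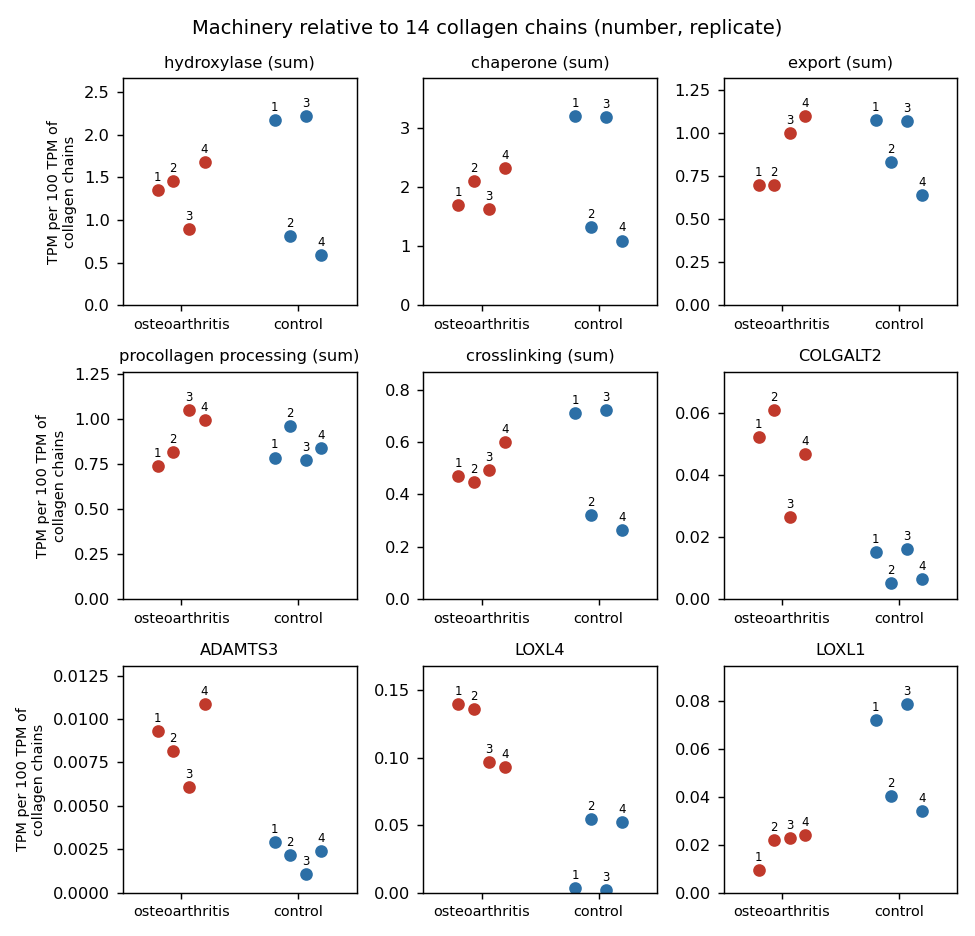
TPM per 100 TPM of 14 collagen chain genes by library, for the summed genes of 5 roles and for 4 single genes, with osteoarthritis left of control and replicates numbered. The summed roles overlap between groups; COLGALT2, ADAMTS3 and LOXL4 lie higher and LOXL1 lower in all osteoarthritis libraries.

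Other genes of collagen production that are no members were taken as a list, of which 36 of 37 genes were in the table. Of these, 28 had a log2 fold change above 0 and 8 below, with a median of 0.29, close to the 0.31 of the members. At an unadjusted edgeR p under 0.05 there were 3 of the 36 higher and 1 lower, against 7.52% and 7.65% of all genes. The lower one, FKBP2, an ER isomerase, fell in osteoarthritis and was the sole gene of the list called by edgeR. It had 2.71, 2.03, 1.63 and 2.48 CPM in osteoarthritis libraries, against 6.11, 5.98, 6.95 and 5.05 CPM in control libraries, with no overlap (-1.44 ± 0.25 on the log2 scale, edgeR adjusted p = 0.0451). Its estimated counts were 24 to 93 in osteoarthritis libraries and 38 to 103 in control libraries. Leaving out 1 library gave an edgeR adjusted p between 0.0461 and 0.145, and the call held in 1 of 8 such fits, that without control 4.

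The deposited TPM read between libraries would give another picture. A single signal recognition particle RNA (Metazoa_SRP) took 17.6% to 22.8% of all TPM in osteoarthritis libraries and 34.7% to 45% in control libraries. On log2(TPM + 1), the median of all genes was shifted by 1.33 toward osteoarthritis. limma on that scale called 36 of the 38 members, all higher, and 88.1% of all genes. On TPM, 33 members lay above every control library and 0 below, against 70.7% and 0.156% of all genes. The members' median was 2.22 there, 0.89 above that of all genes.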

How the data were processed

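RNA-seq was made from total RNA of pig condylar cartilage cells after rRNA depletion, with a strand-specific kit, per the labels' protocols. The authors' deposited table gives estimated counts per gene and library, TPM and effective lengths. The 8 columns that repeat TPM on the log2 scale were left aside. The submitters' processing notes name MultiQC 1.13, DESeq2 1.26.0, STAR 2.7.9a, Salmon 1.1.0, StringTie 2.1.0 and Trim Galore 0.6.7, with the build Sscrofa11.1; their roles, and the strand setting of the quantification, are not given in the sources used here. Coordinates are those of RefSeq on the same build.

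Rounded estimated counts passed through filterByExpr, received TMM factors and were tested with edgeR 4.0.16 (robust quasi-likelihood, R 4.3.3, group as the sole term), with Benjamini-Hochberg adjustment over 16020 genes. The script was checked on simulated data. The standard error is the size of the log2 fold change over the square root of F. Levels are given as TMM-scaled CPM, where TPM had been planned, because deposited TPM differ between the groups in nearly all genes. TMM factors were 1.04 to 1.55 in osteoarthritis and 0.424 to 1.04 in control libraries.

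Members and lists were chosen with earlier results of these data known. Values in every library are given for members called, for the 2 smallest p and the highest mean TPM of each role, and for the 3 smallest p, or those called, of the pathway lists. Members matched by identifier, P4HA3 and LOXL3 were added after their values were seen. Alternatives were other scalings and filters, DESeq2 1.42.0, limma-voom (limma 3.58.1) with and without sample weights, the replicate number as a block, each library left out and controls 1 and 3 summed. Added after seeing the data were effective length as an offset, limma on log2(TPM + 1), and either pair of controls alone.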

Additional observations from a re-analysis of the deposited data

Results flagged for a closer look

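A single library stood apart from the other 3 of its group, by Dixon's criterion, in 3 of the 80 groups looked at; chance gives about 1 in 20. KDELR3 was low in osteoarthritis replicate 3, at 99.2 CPM, with 129.5 to 136 CPM in the other osteoarthritis libraries. COL9A1 was high in control 4, at 537 CPM, with 170.4 to 211 CPM in the other controls. The PCOLCE2 row was also high in control 4, at 10.5 CPM, with 4.57 to 5.04 CPM in the other controls.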

How the results depend on the processing

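Of 594 alternative values for the genes given by library, 474 kept direction and call, 57 gained a call, 22 lost one and 41 reversed. For the 13 separated family shares all 117 kept direction, and none was called there or in the main test. The exact permutation p cannot fall below 0.0286, so a call after adjustment would need many shares at that value. The lack of calls is therefore no sign of stability. The number of changed genes, 99, was 214 with library size alone, 858 with DESeq2, 3329 by limma-voom with sample weights, 31 with controls 1 and 3 summed, 14108 by limma on log2(TPM + 1), 1241 against controls 1 and 3, and 14 to 152 with 1 library left out. Members called, 0, were 1 with RLE scaling, upper quartile scaling, at least 1 CPM in 4 libraries or the length offset, 2 with library size alone or against controls 2 and 4, 3 with DESeq2 or against controls 1 and 3, 6 with sample weights, 36 on TPM and 0 to 2 with 1 library left out (ADAMTS3 and COLGALT2 without osteoarthritis replicate 3, ADAMTS3 without control 4). The members' median, 0.31, was 0.84 with library size alone, where all genes moved by 0.65, 0.030 with sample weights, 2.22 on TPM, 1.04 against controls 2 and 4, -0.13 against controls 1 and 3, and 0.13 to 0.50 with 1 library left out. Other collagen biosynthesis genes called, 1, were 0 with library size alone, no filter, controls 1 and 3 summed or the length offset, 3 with DESeq2, 4 with sample weights, 34 on TPM, 2 against either pair of controls and 0 to 1 with 1 library left out. Collagen chains called, 0, were 5 with library size alone, 7 with DESeq2, 1 by limma-voom, 8 with sample weights, 14 on TPM, 2 against controls 1 and 3 and 0 to 2 with 1 library left out. Reversed log2 fold changes follow; the cause was not tested. P4HA3 was 0.12 with library size alone, 0.66 by limma-voom, 0.14 with controls 1 and 3 summed, 2.05 on TPM, 2.91 against controls 2 and 4 and -0.75 to 0.19 with 1 library left out. COLGALT1 was 0.51, 0.12, 0.20, 1.90 and 0.85 in the same settings and -0.24 to 0.23 with 1 left out. CREB3L1 was 0.52 with library size alone, 0.30 with sample weights, 1.80 on TPM, 0.39 against controls 1 and 3 and -0.30 to 0.034 with 1 left out. With sample weights P4HB was -0.25, SERPINH1 -0.14 and LOXL3 -0.47. Against controls 1 and 3, P4HB was -0.27, P3H1 -0.013, SERPINH1 -0.24, TMEM38B -0.18, MIA2 -0.15, LOXL2 -0.21 and LOXL3 -0.79. With 1 library left out, P4HB was -0.094 to 0.51, SERPINH1 -0.0091 to 0.52 and LOXL3 -0.38 to 0.72. On TPM, LOXL1 was 0.74, SPARCL1 1.2 and FKBP2 0.43, and SPARCL1 was 1.11 against controls 2 and 4. Correlations of the deviations of same-numbered libraries from their group means were -0.018, -0.083, -0.339 and -0.183. With 4 libraries per group and controls split into pairs, these values cannot decide whether the numbers pair the samples. The labels do not say. With the replicate number as a block, edgeR called 1 gene of all, 0 members and 0 other biosynthesis genes; the members' median was 0.43, P4HA3 was 0.71, COLGALT1 0.12, and PCOLCE2 had an adjusted p of 0.103. Precision was limited by 4 libraries per group and by the spread between the pairs of controls, and for TMEM38B and FKBP2 also by counts of 3 to 103. Control counts were low for further genes. In controls 1 to 4 they were 36, 12, 21 and 97 for ADAMTS3 and 65, 32, 52 and 215 for the PCOLCE2 row. LOXL4 had 52 and 31 in controls 1 and 3, and control 2 had 14 for P4HA3 and 13 for LOXL3.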
